A study of Homo sapiens with 8 samples.

Results

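The RNA of 9 cell-surface antigens that are used to type or treat precursor B-cell leukemia was followed in NALM6, a long-established human cell line grown from an acute lymphoblastic leukemia of B-cell precursors. The antigens are CD22, MS4A1 (the gene of CD20), CD38, CD72, MME (the gene of CD10), CD9, CD81, CD44 and CD34. They were chosen by name, as a panel, with earlier results of these data known. Each was found as 1 of the 23621 gene rows of the deposited tables. Of the 9 genes, 8 reached the minimum level for testing, a mean of 1 FPKM over all libraries, and CD44 did not. FPKM counts sequenced fragments relative to transcript length and to the mapped total of a library.

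The cells carried an HMGN1 construct that doxycycline is meant to switch on. HMGN1 encodes a nucleosome-binding protein and lies on chromosome 21. In the WT libraries the construct was wild-type HMGN1, and in the SE libraries it was the S20,24E mutant, which is deficient in binding nucleosomes. Cells of each construct received vehicle or doxycycline (DOX, 100 ng/ml) for 6 hours, and each of these 4 groups has 2 libraries, with the replicate letters A and B. All groups share the NALM6 background, and the labels name no group without a construct. The sources used here do not say whether a construct stands for 1 clone or a pool of cells. RNA came from a fixed number of cells with ERCC spike-ins (synthetic RNAs of known amount) added, and the deposited data are an unnormalized and a normalized FPKM table.

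The panel covers several kinds of membrane protein. CD22 and CD72 are inhibitory co-receptors of the B-cell receptor that recruit the phosphatase SHP-1 through motifs in their cytoplasmic tails. CD9 and CD81 are tetraspanins, which organise other proteins in the membrane. MME is a zinc endopeptidase and CD38 an enzyme that consumes NAD. CD34 and CD44 are glycoproteins of immature and of adherent or migrating cells, and CD44 binds hyaluronan. During B-cell development CD34 is lost early, CD10 marks the precursor stages and CD20 appears late, so that a pre-B leukemia is typically positive for CD10 and CD22, variable for CD34 and low for CD20.

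Library-wide values bear on every comparison. HMGN1 itself was not higher in libraries labelled DOX. Its unnormalized FPKM in WT was 809 and 796 with vehicle and 793 and 795 with DOX, and in SE it was 1427 and 1066 with vehicle and 1421 and 1061 with DOX (letters A and B). The row does not tell construct transcripts from the cells' own, so DOX and vehicle below are the labels of the libraries. Spike-ins made up 0.531% to 0.569% of the unnormalized FPKM in WT and 0.719% to 1.06% in SE, the highest in SE DOX A. In the normalized table, where spike-in sums are nearly equal, SE values are lowered against WT values, and over all 11465 rows tested the median log2 difference of WT minus SE was 0.43. Rows listed at 0 in all 8 unnormalized libraries carry normalized values of 0.0948 to 0.105. The read depth of the libraries is unknown, since the tables hold no counts. Fewer cells with a transcript and less transcript per cell cannot be told apart in such bulk samples.

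Most markers of T cells, natural killer cells, myeloid cells, erythroid cells and platelets were near 0. The T-cell genes CD3G, CD2, CD7, CD8B and TRAT1 were listed at 0 in every library, as were the natural killer genes NCAM1 and NCR1, the myeloid genes ELANE, S100A8 and S100A9, and the erythroid and platelet genes GYPB, HBB and PF4. At least 1 unnormalized FPKM in some library was reached by 2 of 13 T-cell markers, 1 of 8 natural killer markers, 3 of 14 myeloid markers and 1 of 12 erythroid and platelet markers. The summed T-cell list, which is mostly ZAP70 and LCK, ran from 21.6 to 26.0 FPKM in WT and from 14.6 to 18.5 in SE. The other sums were 2.06 to 3.48 in WT and 2.79 to 3.91 in SE for natural killer genes, 4.47 to 7.66 and 4.97 to 7.53 for myeloid genes, and 1.88 to 2.22 and 2.43 to 2.85 for erythroid and platelet genes. Both T-cell kinases are also known from B-lineage leukemia cells. The plasma-cell list was not near 0, and 6 of its 8 genes present reached 1 unnormalized FPKM. Its sum was 470 to 511 in WT and 489 to 510 in SE. The part of these genes in the differences below was not tested.

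By their means the 9 antigens fell into 4 tiers of abundance. CD9, MME and CD81 were among the strongly expressed genes of these cells, and together they held 87.2% to 91.1% of the panel's summed unnormalized FPKM in each library. CD9 averaged 277 ± 43.2 unnormalized FPKM (SD over 8 libraries), rank 280 of 23621 rows. MME averaged 185 ± 12.7 (rank 437) and CD81 173 ± 18.1 (rank 463), and their ranges overlapped. CD9, with its lowest library at 228, was above the highest MME library at 201 and the highest CD81 library at 204.

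The second tier held the B-cell co-receptors and CD38. CD22 averaged 27.0 ± 8.20 unnormalized FPKM (SD over 8 libraries), CD72 23.5 ± 5.77 and CD38 22.2 ± 4.23. Their ranges overlapped, so their order is not separated from the spread between libraries. MS4A1 stood well below at 3.20 ± 1.51 (rank 9796) and CD34 at 1.04 ± 0.653 (rank 11302), again with overlapping ranges. CD44 was at 0.0291 to 0.281 unnormalized FPKM, rank 13414, a level too low for a test. Its range overlapped that of CD34, which was 0.0765 and 0.0930 in the WT libraries of letter A. High MME beside low MS4A1 and CD34 did not go against the label of a B-cell precursor line.

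**Figure D1:**
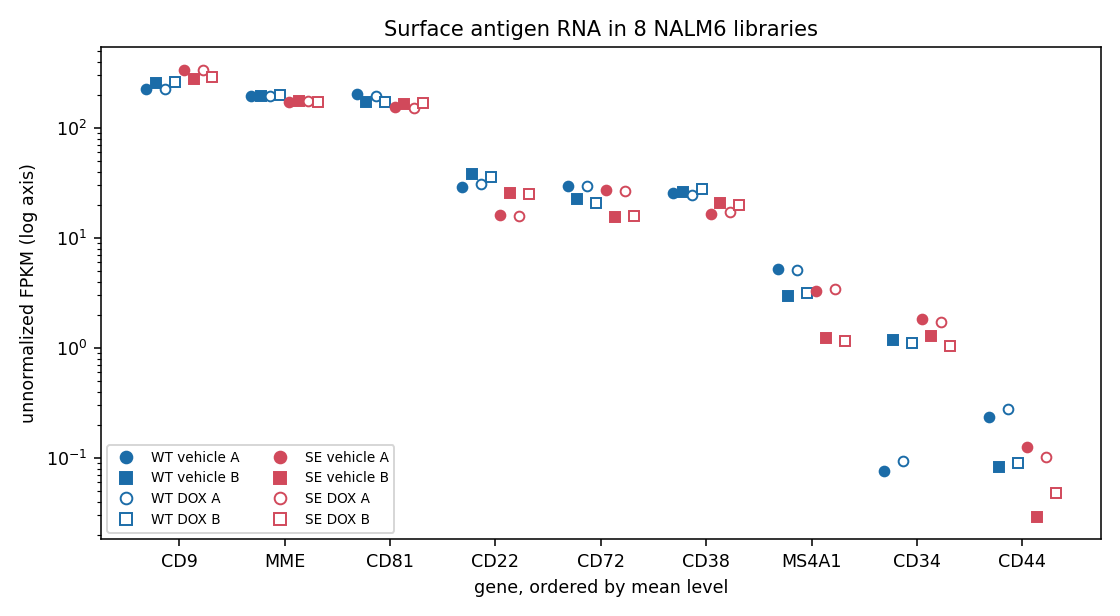
Unnormalized FPKM (log axis) of the 9 surface antigens in each of the 8 libraries, 1 point per library: blue WT, red SE, filled vehicle, open DOX, circles letter A, squares letter B. CD9, MME and CD81 lie above 150 FPKM in every library, CD44 lies below 0.3 in every library, and CD34 is near 0.1 in the 2 WT libraries of letter A.

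The promoters of 3 antigens that differ between constructs or letters are shown. CD22 and CD38 are higher in WT, and CD34 is lowest in 2 of the WT libraries. MS4A1 and CD81, which also differ, had no matching promoter window. CD72, CD9 and MME differ between constructs or letters too, and their windows are not shown. Each sequence is the 250 bases before the RefSeq transcript start, on the gene's own strand, in GRCh38.p14. The FPKM tables were made on hg19. CD22 lies on chromosome 19 (window chr19:35328937-35329186, plus strand), CD38 on chromosome 4 (chr4:15778078-15778327, plus strand) and CD34 on chromosome 1 (chr1:207911126-207911375, minus strand). Capitals mark matches, on either strand, to the motifs described after the sequences.
CD22: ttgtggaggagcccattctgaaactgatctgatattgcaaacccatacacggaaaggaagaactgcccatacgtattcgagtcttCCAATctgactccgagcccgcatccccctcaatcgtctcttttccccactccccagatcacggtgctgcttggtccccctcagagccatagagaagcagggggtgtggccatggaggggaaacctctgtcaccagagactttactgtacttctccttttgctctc
CD38: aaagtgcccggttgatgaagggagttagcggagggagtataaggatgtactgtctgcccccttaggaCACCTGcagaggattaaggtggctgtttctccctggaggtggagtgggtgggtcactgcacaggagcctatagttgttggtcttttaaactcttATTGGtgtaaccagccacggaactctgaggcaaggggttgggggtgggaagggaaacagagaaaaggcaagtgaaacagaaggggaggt
CD34: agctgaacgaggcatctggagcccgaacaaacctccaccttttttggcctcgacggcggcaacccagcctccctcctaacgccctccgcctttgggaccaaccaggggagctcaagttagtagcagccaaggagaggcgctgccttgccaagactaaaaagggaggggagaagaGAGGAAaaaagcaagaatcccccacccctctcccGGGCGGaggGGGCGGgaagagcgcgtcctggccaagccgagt
Searched were TATAAA (bound by the TATA-binding protein), CCAAT (bound by NF-Y), GGGCGG (the GC box), CAGGTG (the E-box of E2A), CCCNNGGG (half-sites of EBF1) and GAGGAA (the core of PU.1), on both strands. The CD22 window held 1 match, a CCAAT box starting at position -165 from the transcript start. The CD38 window held an inverted CCAAT box at -89 and an E2A E-box at -183. The CD34 window held GC boxes at -42 and -33 and a PU.1 core at -76. None of the 3 windows held TATAAA.

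The 3 windows differ in base composition. CD34 had 14 CpG dinucleotides and 61.6% G+C, CD22 7 CpG and 52.8%, and CD38 3 CpG and 52.4%. The median over 35116 RefSeq windows of the same length was 11 CpG and 58% G+C, so CD34 lay above and the other two below it. Such motifs are common: 32.0% of all windows hold a CCAAT box, 42.6% a GC box, 17.5% the E2A E-box, 23.6% the PU.1 core, 17.1% the EBF1 half-sites and 10.7% TATAAA. A match is a string of letters and does not show that a factor binds.

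CD22 was higher in every WT library than in any SE library. Of all rows tested, 11.5% lay this way in the unnormalized table and 65.2% in the normalized table. The unnormalized FPKM of CD22 in WT was 29.2 (vehicle A), 37.9 (vehicle B), 30.9 (DOX A) and 36.0 (DOX B). In SE it was 16.2 (vehicle A), 25.4 (vehicle B), 15.7 (DOX A) and 25.1 (DOX B). The lowest WT library was thus 1.15 times the highest SE library, and letter B was the higher letter in both constructs of this table. In normalized FPKM, WT libraries held 36.9, 41.1, 38.4 and 37.9 and SE libraries 14.6, 25.3, 11.1 and 22.8, in the same order. The construct means were 38.6 ± 1.80 and 18.4 ± 6.69 normalized FPKM (SD, n = 4 libraries), so the spread was larger in SE.

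CD38 showed the same separation of constructs, beside the same shares of all rows. WT libraries held 25.4 (vehicle A), 26.0 (vehicle B), 24.5 (DOX A) and 27.6 (DOX B) unnormalized FPKM. SE libraries held 16.4 (vehicle A), 20.7 (vehicle B), 17.2 (DOX A) and 19.96 (DOX B). The lowest WT library was 1.19 times the highest SE library. The construct means were 30.0 ± 1.70 normalized FPKM in WT and 16.4 ± 3.71 in SE (SD, n = 4 libraries).

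MS4A1 differed by construct and by letter. Its unnormalized FPKM in WT was 5.26 (vehicle A), 2.97 (vehicle B), 5.10 (DOX A) and 3.16 (DOX B). In SE it was 3.29 (vehicle A), 1.23 (vehicle B), 3.41 (DOX A) and 1.15 (DOX B). Within each letter WT was above SE, but the SE libraries of letter A lay above the WT libraries of letter B, so the constructs overlapped. In normalized FPKM they did not overlap, at 3.37 to 6.68 in WT and 1.10 to 3.01 in SE. Of all rows tested, 65.2% lay this way on that scale.

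**Figure D2:**
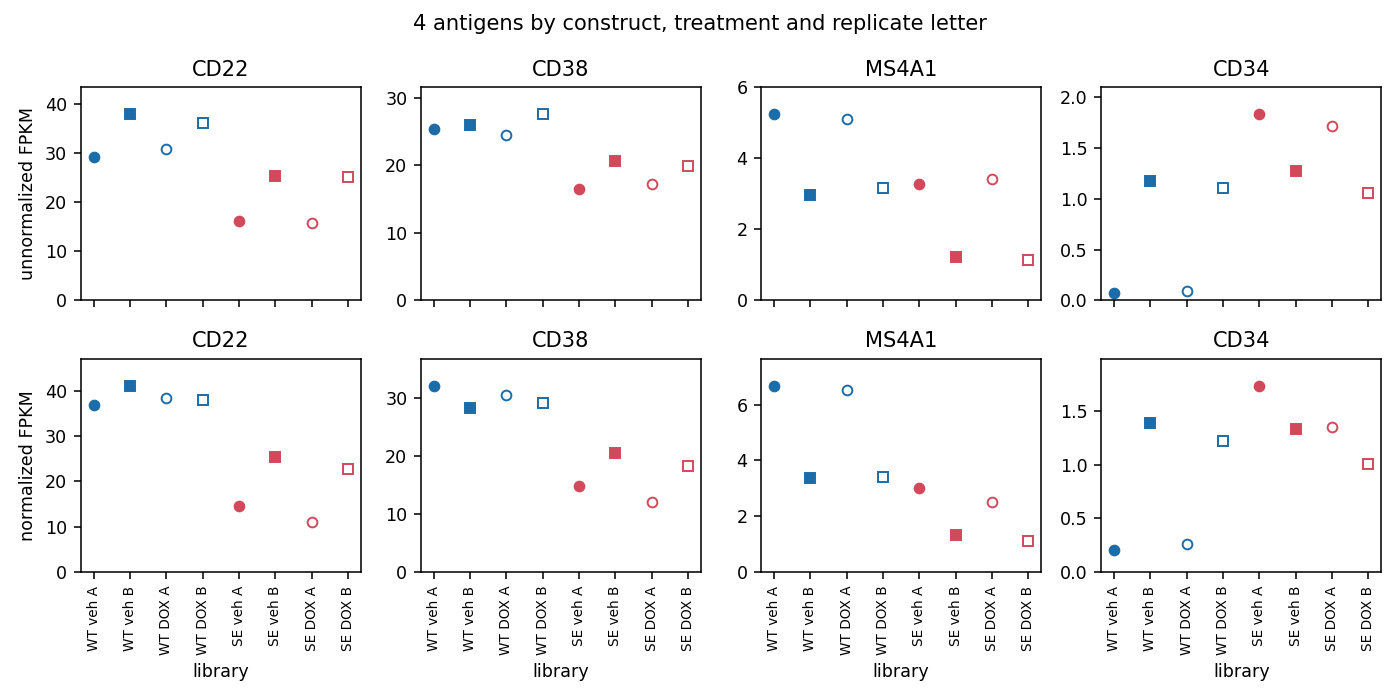
CD22, CD38, MS4A1 and CD34 in each library, as unnormalized FPKM (upper row) and normalized FPKM (lower row), each axis starting at 0: blue WT, red SE, filled vehicle, open DOX, circles letter A, squares letter B. WT points of CD22 and CD38 lie above all SE points in both rows, MS4A1 is lower in letter B of both constructs, and CD34 is near 0 in letter A of WT alone.

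The question for WT against SE is whether lines with the 2 constructs differ in their antigens with treatments pooled. Vehicle and DOX libraries of a letter were averaged, which leaves 2 values against 2, and limma was fitted across all 11465 rows. On the normalized scale 3 of 8 antigens passed an adjusted p of 0.05, all higher in WT, beside 2.95% of all rows (338 rows, 265 higher and 73 lower). The panel was chosen with earlier results of these data known, so its count against that share is not an independent test. The same holds for the gene lists below. MS4A1 was 1.33 higher on the log2 scale (standard error 0.26, 95% interval 0.82 to 1.84, limma adjusted p = 2.85e-05), a fold of 2.51. CD22 was 1.14 higher (standard error 0.26, 0.63 to 1.65, limma adjusted p = 0.0011), a fold of 2.20. CD38 was 0.89 higher (standard error 0.25, 0.40 to 1.38, limma adjusted p = 0.0196), a fold of 1.85. The median of the 8 antigens was 0.66 and that of all rows 0.43, so a part of each value is the shift shared by all genes.

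These 3 calls depended on the scale and on the estimate of the spread. With the 8 libraries set to equal medians, which removes the shared shift, no antigen passed, and 0.105% of all rows did (12 rows). CD22 then had a log2 difference of 0.73 (95% interval 0.13 to 1.33, limma adjusted p = 0.772), MS4A1 0.93 (-0.35 to 2.20, limma adjusted p = 0.772) and CD38 0.49 (0.20 to 0.78, limma adjusted p = 0.753). In the normalized fit limma gave every row the spread of the trend in place of its own: 0.26 for CD22 and 0.26 for MS4A1, where their own standard deviations were 0.46 and 0.73. With each row's own spread, an alternative added after the data were seen, 0 of 11465 rows passed, 566 had an unadjusted p under 0.05, and the limma adjusted p of each of the 3 antigens was 0.310. Without the library SE DOX A, which has the highest spike-in share, none of the 3 passed (limma adjusted p = 0.161 each), at log2 differences of 1.04 for CD22, 1.26 for MS4A1 and 0.82 for CD38.

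The other 5 antigens tested did not pass. CD72, a receptor for the semaphorin CD100, had a log2 difference of 0.70 (95% interval 0.20 to 1.20, limma adjusted p = 0.113), and its libraries overlapped at 20.6 to 29.7 unnormalized FPKM in WT and 15.4 to 27.5 in SE. CD34 had -1.07 (-1.93 to -0.21, limma adjusted p = 0.158), at 0.0765 to 1.18 in WT and 1.05 to 1.83 in SE. The constructs overlapped there too.

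Each of the 3 abundant antigens had WT and SE libraries that did not overlap in the unnormalized table. Of all rows tested, 11.5% lay with every WT library above every SE library there, and 7.95% with every WT library below. MME held 194 (vehicle A), 196 (vehicle B), 195 (DOX A) and 201 (DOX B) FPKM in WT and 171, 174, 175 and 172 in SE, in the same order. CD81 held 204, 172, 195 and 172 in WT and 155, 165, 152 and 167 in SE. CD9 went the other way, with 228, 258, 228 and 259 in WT and 338, 278, 338 and 287 in SE. In these unnormalized values MME varied little within a construct, and CD9 was the one antigen of the panel whose SE libraries all lay above its WT libraries. The log2 differences on the normalized scale were 0.58 for MME (95% interval -0.08 to 1.25, limma adjusted p = 0.196), 0.62 for CD81 (-0.04 to 1.28, limma adjusted p = 0.194) and 0.05 for CD9 (-0.63 to 0.73, limma adjusted p = 0.898).

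The sign for CD9 depended on the scale, at 0.05 on the normalized scale and -0.35 with equal library medians (95% interval -0.70 to -0.01). MME and CD81 had 0.18 and 0.21 with equal medians, CD72 0.30 and CD34 -1.47. Counted without a test, 4 antigens (CD22, CD38, CD81 and MME) had all 4 WT libraries above all 4 SE libraries in the unnormalized table, beside 11.5% of all rows, and 1 (CD9) had all below, beside 7.95%. After normalization 5 antigens lay above, MS4A1 being the added one, beside 65.2% of all rows, and 0 below, beside 0.34%. The normalized count is therefore close to the share of all rows.

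**Figure D3:**
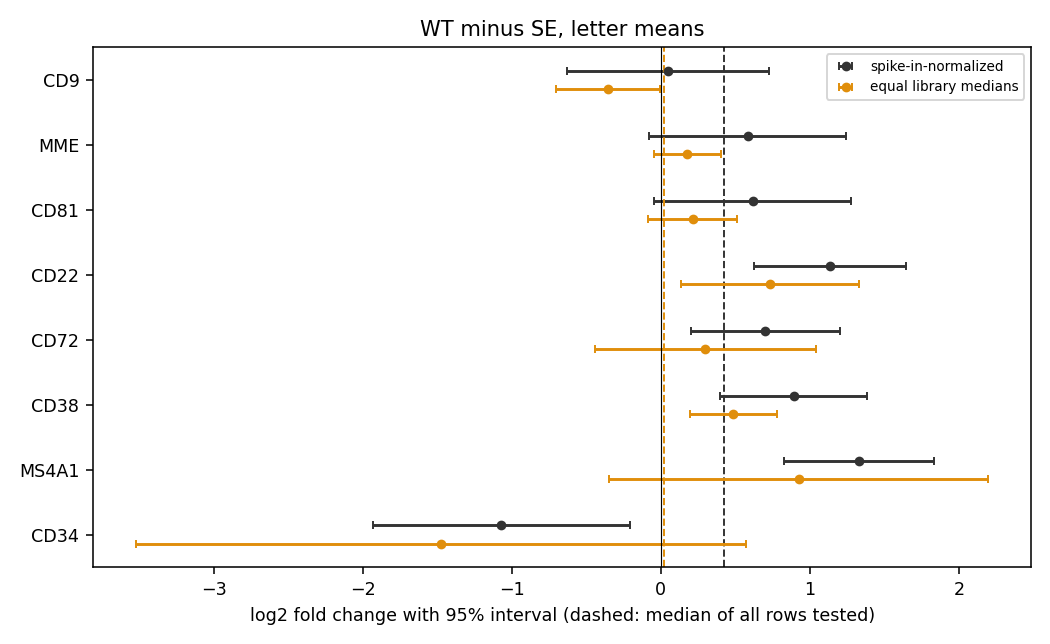
Log2 difference of WT minus SE over letter means for the 8 antigens tested, with 95% intervals from limma (2 values against 2), on the normalized scale (black) and with equal library medians (orange); dashed lines are the medians of all rows tested. Black points of MS4A1, CD22 and CD38 lie at 1.33, 1.14 and 0.89, orange points at 0.93, 0.73 and 0.49, and CD9 changes sign.

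In the unnormalized table most antigens lay close to vehicle with DOX. For the 7 antigens other than CD34 and CD44, the ratio of DOX to vehicle in the unnormalized table ran from 0.907 to 1.06 over both constructs and letters. CD34 had ratios of 0.933 (A) and 0.827 (B) in SE, and the low values of CD44 gave 1.20 and 1.10 in WT and 0.812 and 1.67 in SE. After normalization the same 7 antigens ran from 0.881 to 1.04 in WT, from 0.761 to 0.828 in SE letter A and from 0.833 to 0.955 in SE letter B. All 7 were thus lower with DOX in SE on that scale, as was the median of all rows tested (log2 fold change -0.24). In WT, CD22 was at 29.2 and 30.9 FPKM (letter A, vehicle and DOX) and at 37.9 and 36.0 (letter B), moving up in one letter and down in the other. CD34 in WT was 0.0765 and 0.0930 in letter A and 1.18 and 1.10 in letter B. For CD34 in WT the distance between letters was larger than that between treatments.

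No antigen passed in WT DOX against vehicle, in SE DOX against vehicle or in the difference of the 2 effects. In this fit, which takes no account of letters, none had an unadjusted limma p under 0.05. The shares of all rows called were 0.0698%, 0.0523% and 0.0785%. In WT the log2 fold changes ran from -0.11 for CD72 (95% interval -0.83 to 0.62) to 0.03 for CD34 (-1.67 to 1.73), with -0.03 for CD22 (-0.79 to 0.73) and -0.01 for CD38 (-0.55 to 0.52). In SE they ran from -0.36 for CD34 (-2.06 to 1.34) to -0.22 for CD9 (-0.73 to 0.29), with -0.27 for CD22 (-1.03 to 0.49) and -0.23 for CD38 (-0.77 to 0.30).

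The antigens lay close to the library as a whole. Their median was -0.02 in WT and -0.24 in SE, and the median of all rows was -0.03 and -0.24. For the difference of the effects the medians were 0.22 and 0.21. With equal library medians the antigens ran from -0.08 to 0.05 in WT and from -0.13 to 0.02 in SE. In the fit on the normalized scale, which takes no account of letters, the intervals were wide. A change of CD22 in WT by a fold of 0.578 to 1.66 lies within the 95% interval, and for CD34 0.314 to 3.31. With letter as a block, small RNA names left out and equal library medians, these intervals were 0.938 to 1.07 and 0.793 to 1.37. The labels do not say that libraries of a letter share a culture.

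**Figure D4:**
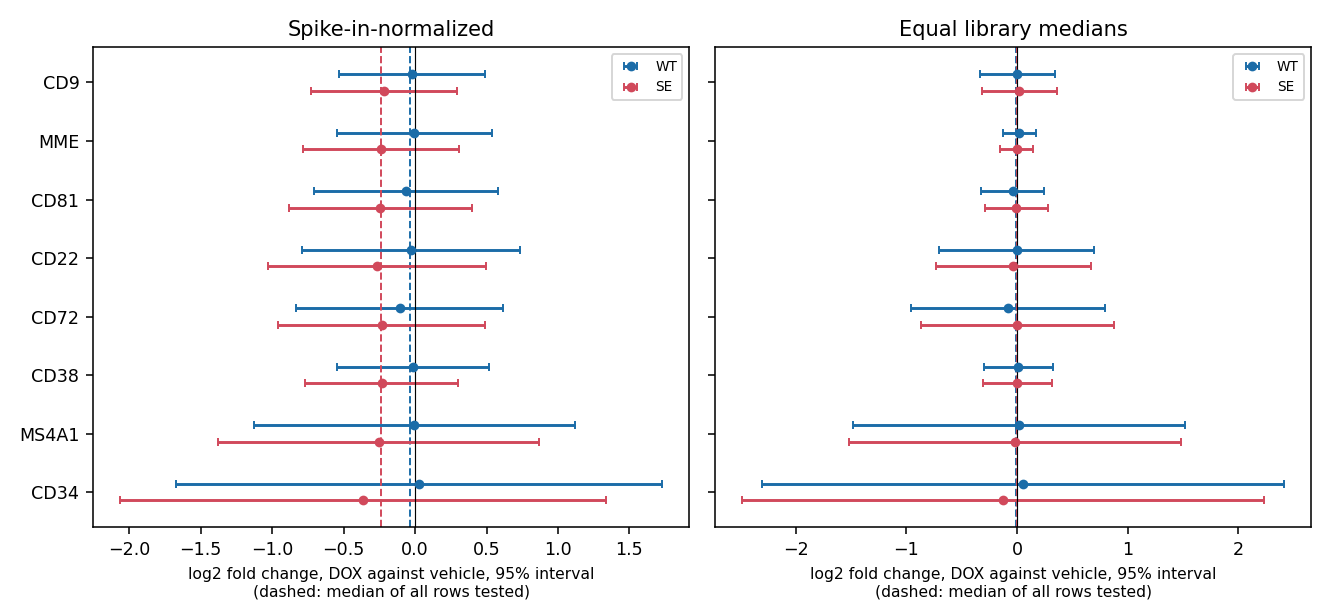
Log2 fold change of DOX against vehicle for the 8 antigens in WT (blue) and SE (red), with limma 95% intervals (2 libraries against 2), on the normalized scale (left) and with equal library medians (right, its own axis range); dashed lines are the medians of all rows tested. All intervals include 0, and on the left the SE points lie together near the SE median of -0.24.

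Among the 8 antigens tested, the largest ratios between replicate letters were those of CD34 in WT and MS4A1 in SE. These differences are given in unnormalized FPKM and described without a test, since each construct has 1 letter A and 1 letter B per treatment. In WT, CD34 was 15.4 times higher in letter B than in A with vehicle and 11.9 times with DOX. In SE it was 1.44 and 1.63 times higher in letter A. The WT libraries of letter A thus stood apart from the other 6. In the normalized table the WT folds were 6.75 and 4.70, where the letter A values of 0.207 and 0.260 lie near the value that a listed 0 takes.

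MS4A1 was higher in letter A of both constructs, by 1.77 (vehicle) and 1.61 (DOX) times in WT and 2.68 and 2.97 times in SE. CD72 went the same way, by 1.31 and 1.43 times in WT and 1.78 and 1.68 times in SE. CD22 went the opposite way, by 1.30 and 1.17 times higher in letter B in WT and 1.57 and 1.59 times in SE. The CD22 order of letters is thus the reverse of that of MS4A1 and CD72 in this table. On the normalized scale the reversal held in SE and in WT vehicle but not in WT DOX, where CD22 was 38.4 in letter A and 37.9 in letter B. CD44 was higher in letter A as well, by 2.85 and 3.11 times in WT and 4.33 and 2.11 times in SE, all at values below 0.3 FPKM.

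MME was nearly equal between letters in unnormalized FPKM, with ratios of A to B from 0.970 to 1.02, and ran from 0.786 to 1.17 after normalization. CD9 had ratios of 0.884 and 0.878 in WT and 1.22 and 1.18 in SE, and CD81 1.18 and 1.13 in WT and 0.942 and 0.912 in SE. The order of letters for both tetraspanins thus turned with the construct in this table. After normalization CD81 still turned, at 1.40 and 1.32 in WT and 0.864 and 0.706 in SE, whereas CD9 had 1.05 and 1.03 in WT and 1.12 and 0.910 in SE. Among all rows with an unnormalized mean of at least 1 and no small RNA name, 0.833% in WT (92 of 11042) and 0.226% in SE (25 of 11042) were over 2-fold apart between letters in the same direction in both treatments. CD34 was the panel's gene among them in WT, and MS4A1 in SE.

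**Figure D5:**
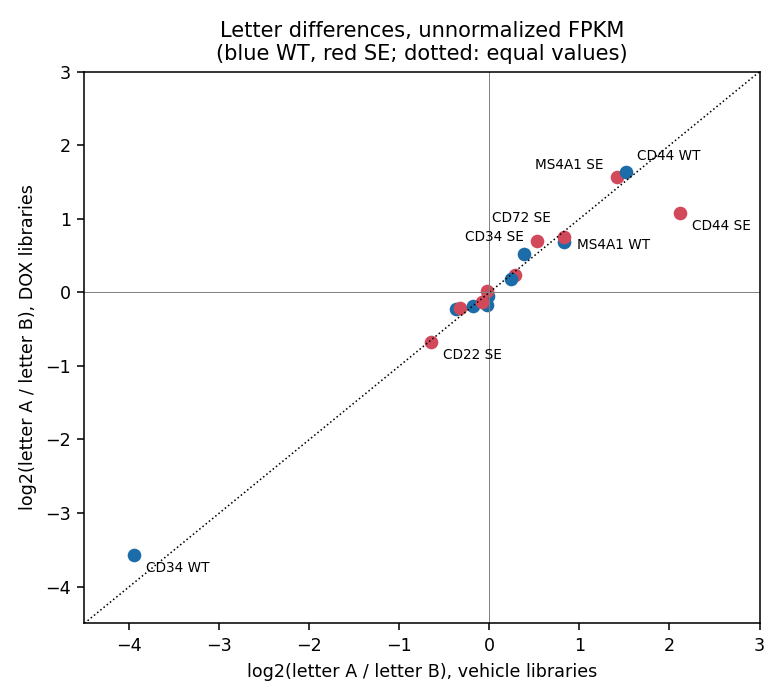
Log2 ratio of letter A to letter B in unnormalized FPKM, with vehicle libraries on the x axis and DOX libraries on the y axis, for the 9 antigens in WT (blue) and SE (red); the dotted line marks equal values. Most points lie along the line, CD34 in WT stands at -3.94 and -3.57, and MS4A1 in SE at 1.42 and 1.57. CD44 in SE lies off the line, at 2.12 and 1.08.

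Over all 8 libraries with equal medians, CD34 had the widest log2 range (3.06), followed by MS4A1 (2.04), CD22 (1.27), CD72 (0.95), CD38 (0.74), CD9 (0.59), CD81 (0.44) and MME (0.22). Genes whose levels followed these patterns most closely were sought among 10903 rows. Pearson's r is given as a description over 8 libraries, which share constructs and letters. The nearest to CD22 were PTK2B, a focal adhesion family kinase (r = 0.994), CDC5L, a splicing factor (0.993), and CDK2, a cell cycle kinase (0.993). The nearest to CD38 were CLTC, the clathrin heavy chain (0.996), TXNRD1, a thioredoxin reductase (0.992), and PPP1CC, a catalytic subunit of protein phosphatase 1 (0.989). The nearest to CD34 were HLA-DQB2, a class II HLA gene (0.997), RBM12, an RNA-binding protein gene (0.996), and FAM212B (0.995). With 8 libraries such values are common, and 574, 453 and 609 rows had r above 0.9 with CD22, CD38 and CD34.

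Other surface antigens of B-lineage cells were led by CD74, the invariant chain (mean 703 normalized FPKM), CD24 (453) and CD79B, a B-cell receptor subunit (233). Of 34 listed, 17 were tested, and 5 were higher in WT than in SE and 0 lower, beside 265 higher and 73 lower among all 11465 rows (2.95% called). These were FCRLA, an Fc receptor-like protein (log2 difference 1.50), FCER2, the IgE receptor CD23 (1.78), TNFRSF13B, the receptor TACI (1.42), CD48, a ligand of the SLAM family (1.22), and CD180, a Toll-like receptor homologue (0.95). CD48 ran from 26.4 to 39.5 unnormalized FPKM in WT and from 17.3 to 20.4 in SE. The list's median was 0.67, close to the panel's 0.66, and 0.26 with equal library medians, where none passed. CD74, CD24 and CD79B did not pass, at 0.51, 0.67 and 0.16.

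Antigens used to follow residual disease or to tell leukemia subtypes had 11 of 22 tested, 2 higher and 0 lower, beside 2.95% of all rows called. Neither of the 2 passed with equal library medians. PTPRC, the phosphatase CD45, had 1.69 and held 2.15 to 6.06 unnormalized FPKM in WT and 0.854 to 2.33 in SE. CD99 had 0.85, and CLEC12A, a C-type lectin, had 0.66 and did not pass (limma adjusted p = 0.074). The chemokine receptor CXCR4 was the most abundant of the list (318 normalized FPKM), with CD47, which inhibits phagocytosis (42.8), and CD58, the ligand of CD2 (29.5), next. None of these 3 passed. The list's median was 0.26, below that of all rows.

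The signalling partners of CD22 and CD72 were all expressed, and 1 of 12 passed, beside 2.95% of all rows. LYN, the kinase that phosphorylates CD22, was higher in WT by 1.01 (limma adjusted p = 0.0088), with 30.9 to 40.5 unnormalized FPKM in WT and 20.7 to 25.8 in SE. PTPN6, which encodes SHP-1, had 0.83 (limma adjusted p = 0.125) and ST6GAL1, the enzyme that makes the sialic acid ligand of CD22, 0.68 (limma adjusted p = 0.164). DOK3, an adaptor, and CSK, a kinase that restrains LYN, were the most abundant, at 185 and 89.1 normalized FPKM, and had 0.27 and 0.30. LYN and CD22 thus had differences of like size, and neither passed with equal library medians, LYN having 0.61.

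Of the other tetraspanins 13 of 18 were tested and 1 was higher in WT, beside 2.95% of all rows called: TSPAN13 (0.78, limma adjusted p = 0.0451). CD53, CD63 and TSPAN3, the most abundant at 144, 104 and 41.8 normalized FPKM, had 0.51, 0.38 and 0.33, and TSPAN17 and TSPAN33 had 0.43 and 0.44. None of these 5 passed. The median was 0.33, below that of all rows. Of 22 partners of tetraspanins and adhesion genes, 15 were tested and 2 were higher, beside the same 2.95%: IFITM1, a partner of CD81 (1.13), and ICAM2, an adhesion molecule (0.76). IFITM1 overlapped between constructs, at 6.19 to 18.8 unnormalized FPKM in WT and 3.67 to 9.83 in SE. MSN and EZR, which link membrane proteins such as CD44 to actin, had 0.47 and 0.50 and did not pass. ITGA4, an integrin alpha chain, and IGSF8, an immunoglobulin protein bound by CD9 and CD81, had 0.59 and 0.50 and did not pass.

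Among the markers of other cells, 3 of 12 genes tested were higher in WT on the normalized scale, beside 2.95% of all rows called. ZAP70, a kinase of T-cell signalling, had 1.00, at 18.3 to 19.1 unnormalized FPKM in WT and 11.01 to 14.5 in SE. LYZ, the lysozyme of myeloid cells, had 1.24, at 1.56 to 4.62 in WT and 1.22 to 1.70 in SE. IGJ, the joining chain of plasma cells, had 2.68, at 2.17 to 12.6 in WT and 0.733 to 1.22 in SE. LCK, CD33 and CD68 had 0.71, -0.63 and 0.17, NKG7 had 0.04 and GP1BA 0.11, and none of these passed. The plasma-cell genes XBP1, MZB1 and IRF4, which B-lineage cells also express, were at 302, 136 and 52.7 normalized FPKM and did not pass, at 0.25, 0.57 and 0.48. No gene of any list passed in a DOX comparison, and none passed between constructs with equal library medians.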

How the data were processed

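Poly(A) RNA from 8 NALM6 libraries was measured in 4 groups of 2, taken from the genotype, treatment and replicate labels. The authors deposited an unnormalized and a normalized FPKM table of 23713 rows, 92 of them for spike-ins. HISAT and Cufflinks 2.0.0 were run on hg19, per the submitters' processing notes. The sources used here do not state how values were normalized. The spike-in sum is nearly equal over the libraries of the normalized table, at 7050 to 7166. Per the labels, A and B are biological replicates. How cultures were kept apart is not stated, so p-values rest on the spread between these samples. In the reported WT against SE fit limma took that spread from the trend over all rows, not from each row.

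The deposited normalized FPKM were analysed here as log2(FPKM + 0.1), which understates changes of low genes. Spike-ins and rows with a mean under 1 over the 8 libraries were left out, and 11465 rows were tested, 302 of them with small RNA names. limma 3.58.1 (R 4.3.3), with its trended empirical Bayes spread, was fitted to 4 group means for DOX, and to 4 construct-and-letter means for WT against SE, since libraries of a letter may share a culture. P-values were adjusted by Benjamini-Hochberg over all rows, with a threshold of 0.05. The fits were run on simulated data with independent noise of equal spread in every row. No letter effect and no shift shared by all genes was simulated, so that run does not cover them. FPKM of genes that share or overlap transcripts can divide reads, and strand was not used.

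The antigens and the 10 other lists were chosen with earlier results of these data known. Genes named are the antigens, the 3 of highest mean and the 3 of smallest p per list, any list gene called, and the 3 rows nearest to CD22, CD38 and CD34. Of the list genes this selects, those of a mean under 1 are not described. The alternatives were equal library medians, the unnormalized table, a pseudocount of 1, no filter, small RNA names left out, robust empirical Bayes, a replicate block, each library left out, single treatments, and libraries as separate replicates. Promoter windows came from RefSeq (GRCh38.p14), where 7 of the 9 antigens matched and MS4A1 and CD81 did not.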

Additional observations from a re-analysis of the deposited data

How the results depend on the processing

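In the 3 DOX comparisons 0 antigens passed under every alternative run. For WT against SE, 3 passed in the reported fit and also with a pseudocount of 1 and with robust empirical Bayes. The count was 4 with small RNA names left out, where CD34 was added as lower in WT. It was 0 in the unnormalized table, with equal library medians, with no filter on low values, and with small RNA names left out and equal medians together. It was 0 in vehicle libraries only, 0 in DOX libraries only and 0 with each row's own spread, and 6 with the 8 libraries taken as separate replicates. Leaving out 1 library gave 0 (without SE DOX A) to 4 (without SE vehicle B, where CD72 was added). CD38 was also lost without SE vehicle A (limma adjusted p = 0.236) and without SE DOX B (limma adjusted p = 0.139). No fold change of an antigen that had passed reversed its sign.

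With a replicate block by letter, 1 antigen (MS4A1) passed for WT against SE, and 0 with a replicate block, small RNA names left out and equal medians together. The labels do not say that same-letter libraries share a culture. The difference of letters in vehicle correlated with that in DOX at r = 0.77 in WT and 0.74 in SE over rows other than small RNAs, and at 0.09 and 0.12 over all rows. Rows called with the block rose from 8 to 181 for DOX in WT, from 6 to 1663 in SE (1569 of them lower) and from 9 to 227 for the difference, and fell from 338 to 151 for WT against SE. For DOX in SE with the block, 4 of the 8 antigens had an unadjusted limma p under 0.05, beside 6842 of all 11465 rows. With small RNA names left out and equal medians too, 0 antigens had. With small RNA names left out and equal medians as well, the block gave 2 rows for DOX in WT, 0 in SE and 0 for the difference, where 437, 324 and 376 rows had an unadjusted limma p under 0.05.

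Counts over all rows for WT against SE were 338 in the reported fit, 10 in the unnormalized table, 12 with equal medians, 183 with no filter, 206 with small RNA names left out (5 with equal medians as well, 23 with the block added), 204 with robust empirical Bayes, 21 in vehicle libraries, 12 in DOX libraries, 6936 over separate libraries and 21 to 1549 with 1 library left out. The higher calls were 265 of 338 in the reported fit and 3 of 12 with equal medians. For DOX, small RNA names left out gave 0 rows in WT, 1 in SE and 1 for the difference. Libraries left out in turn gave 9 to 27, 8 to 25 and 17 to 36. Groups of 2 limit precision, and depth is unknown.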
